A study of Mus musculus with 16 samples.

Results

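Of the 22060 m6A peaks called in the first liver library of mice on a high-fat diet, 1905 (8.64%) overlapped by at least 1 bp a peak in each of the other 3 m6A libraries, and these shared peaks are described here. They were chosen by the deposited start and end of each peak alone, and hence by which peaks passed the authors' threshold in all 4 libraries. The data came from livers of male C57BL/6 mice, 16 weeks old, after 8 weeks on a high-fat diet alone (HF) or on a high-fat diet plus betaine (HB). Both groups ate the high-fat diet, and no group on another diet was analysed here. Each diet had 2 libraries of m6A-immunoprecipitated RNA fragments, 2 of total mRNA and 2 of mRNA bound to ribosome nascent-chain complexes (RNC). The labels say that material from 2 independent experiments was pooled for each mRNA and RNC sample, so spread and p-values concern pools and not single mice. The HB RNC pair differed by about the sampling noise (chi-square over degrees of freedom 1.40, where the other replicate pairs gave 34.7 to 98.5) and was summed and counted as 1 sample.

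N6-methyladenosine, m6A, is a methyl mark on adenosines inside messenger RNA. METTL3 and METTL14 place it with the adaptors WTAP, VIRMA, ZC3H13 and RBM15, mostly at a GAC or AAC core and often near stop codons and in 3′ untranslated regions. FTO and ALKBH5 can remove the mark, and YTH-domain proteins bind it and affect splicing, export, translation and decay of the transcript. The methyl group comes from S-adenosylmethionine, and betaine is a methyl donor that liver uses to remake methionine. In m6A immunoprecipitation an antibody pulls down RNA fragments, so a peak marks a stretch of RNA and not a single adenosine.

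Most shared peaks lay far from gene starts, so few of them met the sequence windows at hand. All hairpins that did, and a choice of the gene starts made after their values were seen, are printed to show which bases they cover. Each GAC or AAC core is in capitals. The first 3 are microRNA hairpins (RefSeq, GRCm38.p6) that lie wholly inside a shared peak: Mir6897 at chr1:36144252-36144313 (minus strand) in the span of Uggt1, Mir7030 at chr5:115645573-115645632 (plus strand) in the span of Rab35, and Mir1896 at chr13:21445160-21445240 (plus strand) in the span of Zscan26. Uggt1 and Rab35 are on the strand of their hairpin, but Zscan26 is on the minus strand, so the cores marked in Mir1896 are not those of the Zscan26 transcript.
Mir6897: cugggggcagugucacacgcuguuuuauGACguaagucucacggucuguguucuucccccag
Mir7030: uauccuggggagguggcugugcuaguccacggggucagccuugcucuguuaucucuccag
Mir1896: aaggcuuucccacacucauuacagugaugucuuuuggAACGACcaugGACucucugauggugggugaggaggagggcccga
The Mir1896 stretch held 3 such cores, Mir6897 held 1 and Mir7030 held none on the printed strand. Of the 1005 mouse hairpins in the RefSeq table, 82.2% held GAC or AAC and 24.5% held GGAC.

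The next sequences are stretches of up to 30 bases after a gene start that lie inside a shared peak, for F9 (coagulation factor IX) at chrX:59999473-59999502, Slco1b2 (a hepatocyte uptake transporter) at chr6:141629529-141629558, Sult2a8 (a sulfotransferase) at chr7:14446558-14446587, Agt (angiotensinogen) at chr8:124569657-124569683 and B230398E01Rik, which starts inside the span of Pi4kb, at chr3:94983938-94983967. F9 and Slco1b2 are on the plus strand and the others on the minus strand, B230398E01Rik thus opposite to Pi4kb. Each stretch begins at the first base inside the peak, except that of B230398E01Rik, which was moved downstream to hold its GGAC.
F9: ctgAACaccgtcatggcagaatccccggct
Slco1b2: cacacttgttgtagaagcctgagttcaggt
Sult2a8: tattcttgtagttacaccacagattctccc
Agt: cgctgaaggtaagcagagcactcttgt
B230398E01Rik: agaaaagAACagaaaggGACacatacacac
The first 50 bases of 19 RefSeq genes met a shared peak. Of these, 12 (63.2%) held GAC or AAC, against 68.6% of all 32851 gene starts, and 2 (10.5%) held GGAC, against 18.9%. The letters were counted on the gene's own strand. A match is a description of the window only. The fold enrichments of the F9 peak were 17.5 and 8.05 in HF and 13.01 and 10.2 in HB, and those of the Agt peak were 14.0 and 10.5 in HF and 7.33 and 13.1 in HB. Neither set separated the diets.

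The HF lists numbered 22060 and 24141 peaks, those of HB 22086 and 25718. Between any pair of lists, 16.9% to 23.2% of the peaks of one overlapped a peak of the other. Of the peaks in HF replicate 1, 13913 met no peak of another library, 4125 met 1 library, 2117 met 2 and 1905 met all 3. The shared peaks covered 2000 peaks of HF replicate 2, 1961 of HB replicate 1 and 1920 of HB replicate 2. The edge of the rule was narrow for a few: shared peaks in Tlr3, Gm21992/Rbm4b and Naip2 rested on overlaps of 3, 11 and 13 bp. Peaks in 2010315B03Rik, Ifnar1 and Rbak missed a single library by gaps of 1, 4 and 5 bp, but each of these 3 genes also held another peak that was shared.

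Fold enrichment (the signal at the summit over its local background) and pileup (the height of stacked fragments at the summit) are the authors' values per peak. Every listed peak had a fold enrichment of at least 6, and overlap itself favours long peaks, so the following is a description of what the rule selects. Shared peaks were long: their median lengths were 527 and 456 bp in HF and 430 and 521 bp in HB, against 206 to 223 bp for the other peaks of the same lists. Their median fold enrichments were 12.8 and 14.5 in HF and 13.2 and 11.5 in HB, against 8.58 to 10.7 for other peaks. Median pileup was 134 and 127 in HF and 146 and 157 in HB, against 21.0 to 35.5. Pileup set the shared peaks apart most: of the 1000 highest pileups in each list, 603, 546, 658 and 702 were shared, but of the 1000 highest fold enrichments only 451, 379, 152 and 299 were.

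**Figure D1:**
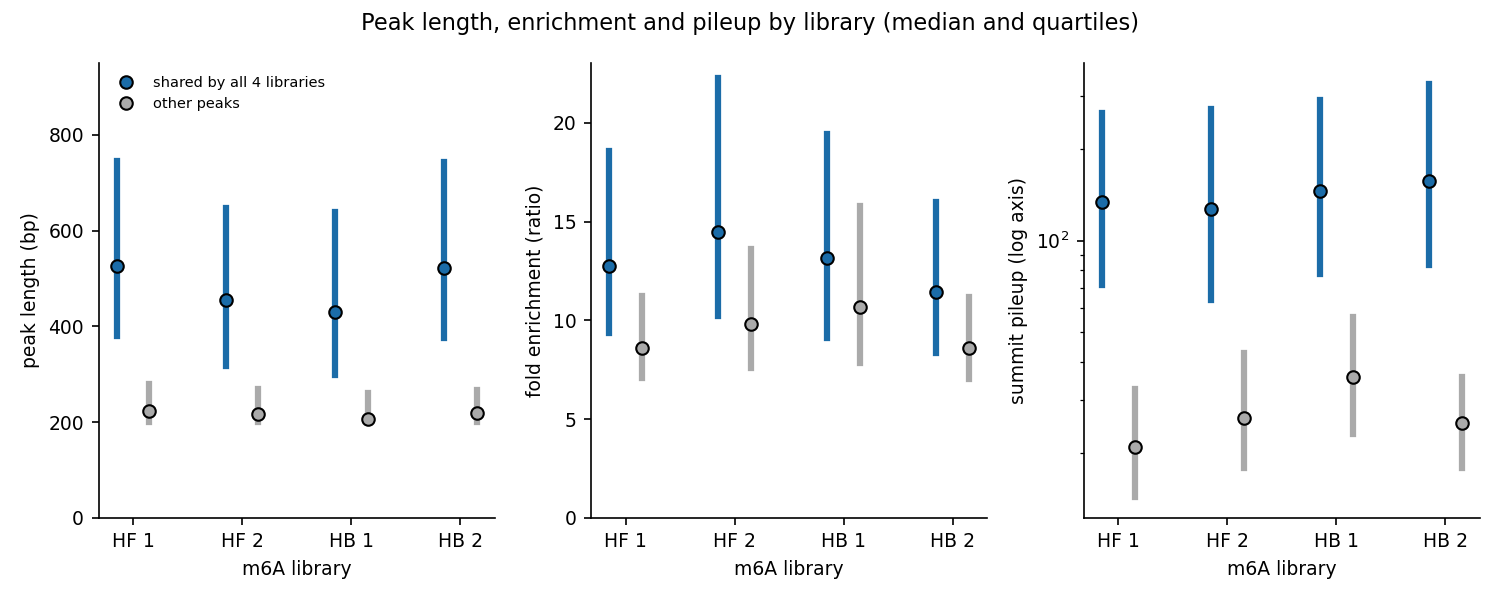
Peak length in bp, fold enrichment and summit pileup (log axis) in the 4 m6A libraries. Points are medians and bars run from the lower to the upper quartile, for peaks shared by all 4 libraries (blue) and all other peaks of each list (grey): in each library the shared peaks have the higher median of all 3 measures.

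Shared peaks kept their rank in pileup much better than in enrichment. Across the 1905 peaks, Spearman's rho between libraries was 0.73 to 0.86 for pileup, 0.41 to 0.50 for length and 0.24 to 0.38 for fold enrichment, given as a description because peaks of a library share its depth and their gene's abundance. The highest of the 4 enrichments of a peak was at the median 2.20 times the lowest. It was under 2 times the lowest in 765 peaks (40.2%) and over 5 times in 103. HF replicate 2 had the highest of the 4 values in 760 peaks (39.9%) and HB replicate 2 in 250 (13.1%), with 386 in HF replicate 1 and 509 in HB replicate 1. In each diet 1 replicate thus had far more of them than the other. The share of the 1905 peaks in which both HB values lay on 1 side of both HF values is not given here. With so few libraries such an order can arise without any effect of diet. Where it is given below for a named peak, it only describes that peak's values. Summits were close, with a median range over the 4 libraries of 116 bp, within 100 bp in 852 peaks (44.7%) and over 500 bp in 206.

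A protein-coding gene lay under 1796 of the shared peaks (94.3%), only an lncRNA gene under 41 and neither under 68, while 126 peaks met 2 or more genes. Genes were assigned by their whole span in GRCm38.p6, so exons and introns were not told apart, and no strand is given for a peak. The 1458 peaks that fell in 1 gene of known strand lay toward the gene's end. Their summits were a median of 3074 bp from it (quartiles 1440 and 9313 bp), 715 (49.0%) within 3000 bp and 248 (17.0%) within 1000 bp, while 43 (2.95%) lay within 1000 bp of the gene start. Over all peaks of a list, the share with a summit within 3000 bp of a gene end was 38.5% to 38.8% for shared peaks in the 4 libraries and 9.46% to 13% for the others. By chromosome, described with no test, chromosome 2 held 8.56% of the shared peaks and 7.85% of the HF replicate 1 peaks, chromosome 19 held 4.15% and 3.14%, and chromosome X 1.52% and 2.65%.

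**Figure D2:**
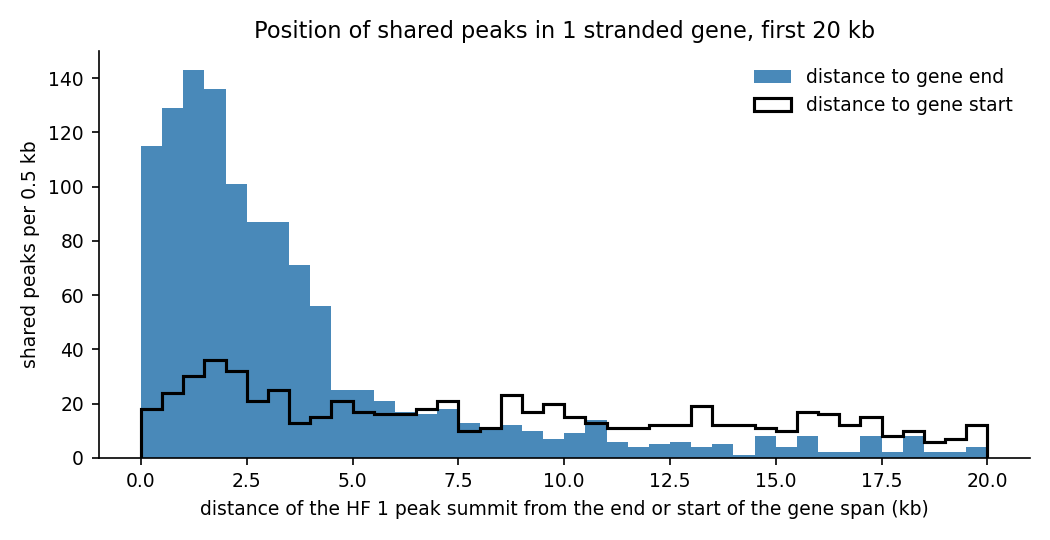
Number of shared peaks per 0.5 kb of distance, in kb, between the summit in HF replicate 1 and the end (filled) or start (line) of the gene span, for summits inside the span and within its first or last 20 kb. The filled bars are highest within 3 kb of the gene end, where 49.0% of the 1458 placed peaks lie.

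The 10 most enriched shared peaks lay in genes of varied function. The peak with the highest enrichment in its weakest library was in Jund (chr8:70699839-70700367, 499 bp before the gene end), which encodes the AP-1 subunit JunD. Its fold enrichments were 37.5 and 43.1 in HF and 47.1 and 37.7 in HB, a spread smaller than most, with the diets overlapping. In Acsl1, which encodes the long-chain acyl-CoA synthetase that activates fatty acids, the peak at chr8:46481918-46482939 had 38.7 and 44.4 in HF and 45.3 and 32.4 in HB. The peak in Pik3ca, the catalytic subunit of PI3-kinase, at chr3:32462557-32463037 had 36.1 and 68.5 in HF and 30.5 and 38.8 in HB. These groups also overlapped.

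Jdp2, a repressor that pairs with AP-1 proteins, had the highest single value of the 10 most enriched peaks: 41.1 and 98.5 in HF and 62.4 and 28.9 in HB (chr12:85638948-85639577). The other peaks of the 10 lay in Rgl1, Fuca2 (a fucosidase), Tmsb4x (thymosin beta-4, an actin-binding peptide), Wnt5b/Fbxl14, Urgcp and Lrig2, with lowest-of-4 values between 28.5 and 36.0. The lowest value of the 4 was in HB replicate 2 for Acsl1, Tmsb4x, Wnt5b/Fbxl14, Jdp2 and Lrig2, and in HF or the other HB library for the rest. Over all shared peaks, 53 reached a fold enrichment of 20 in all 4 libraries and 646 reached 10.

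The 10 highest pileups fell in 8 genes, all but Fabp1 encoding secreted proteins. Apoa1, the main protein of HDL, had pileups of 38520 and 42262 in HF and 29864 and 36190 in HB, with low fold enrichments of 7.34 and 8.87 in HF and 7.97 and 6.86 in HB (chr9:46229741-46230427). Fga, the fibrinogen alpha chain, had pileups of 39018 and 52188 in HF and 29399 and 29357 in HB, and fold enrichments of 22.5 and 34.2 against 12.8 and 12.3. In Fga both HB values lay below both HF values on either measure, and in Apoa1 on pileup only.

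Apob, the structural protein of VLDL, carried 4 shared peaks, 3 of them among the 10 highest in pileup. The one at chr12:8005843-8007602 was 1760, 1810, 1940 and 1920 bp long in HF 1, HF 2, HB 1 and HB 2, with pileups of 20482 and 16997 in HF and 19914 and 21767 in HB. Serpina3k (a plasma protease inhibitor with near-identical relatives, so its reads are uncertain), Apoa5, Fabp1 (the liver fatty-acid-binding protein), Rnase4 and Crp made up the rest. Rnase4 went from 5694 and 8306 in HF to 20260 and 15596 in HB, so both HB values lay above both HF values. The pileups of Apoa5 and of the Apob peaks at chr12:8007793-8009617 and chr12:8009861-8011317 had the same order. Pileup is not stated to be scaled between libraries, so no test was made.

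**Figure D3:**
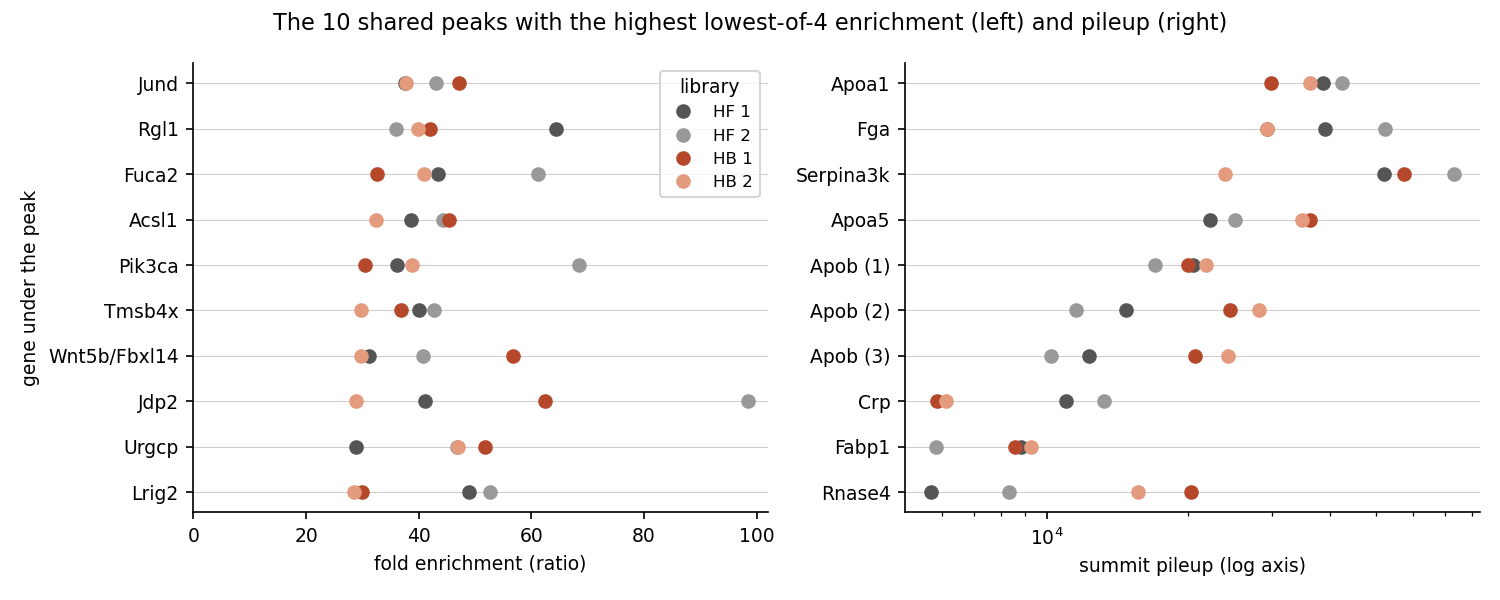
Fold enrichment (left) and summit pileup (right, log axis) of the 10 shared peaks with the highest value in their weakest library, 1 row per peak and 1 point per m6A library. On the left, both HB points lie below both HF points for Fuca2, Tmsb4x and Lrig2 and above them for Urgcp. On the right, both lie below for Apoa1, Fga and Crp. There they lie above for Apoa5, Rnase4 and the Apob peaks at chr12:8007793-8009617 and chr12:8009861-8011317. The values of the 2 diets overlap in the other rows, among them Jund and Acsl1.

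Crp, C-reactive protein, an acute-phase opsonin, had both a high pileup and a high enrichment (chr1:172698522-172699105). Its pileups were 11004 and 13253 in HF and 5860 and 6133 in HB, and its fold enrichments 44.2 and 53.9 against 18.98 and 21.5. Its mRNA moved the other way, as given below. Across the 1665 genes that could be matched to the count tables, pileup was correlated with abundance (Spearman's rho with mRNA RPKM of 0.50 to 0.57 in the 4 library pairs), and fold enrichment gave -0.09 to -0.22. These are descriptions over genes, which share libraries and depth.

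Shared peaks fell in 1697 genes, and 174 of these had more than 1. Ahnak, a giant scaffold protein gene, had 9 within about chr19:9001759-9014963, with fold enrichments between 6.05 and 20.2, and some of them met the same long peak of HB replicate 2. Akap9 (a kinase-anchoring scaffold of the centrosome), Apob, Cfhr3 (a complement factor H relative), Dpyd (the first enzyme of pyrimidine breakdown) and Spen (a transcriptional corepressor that binds RNA) had 4 each. Peaks are counted as they stand in HF replicate 1. In Akap9 and Cfhr3, too, some of them met the same peak of each HB library. Spen peaks differed along the gene: the one nearest the gene end had 38.3 and 28.3 in HF and 16.5 and 13.6 in HB, while the one at chr4:141521262-141521718 had 7.09 and 7.79 in HF and 21.1 and 21.0 in HB. The diets did not overlap in either, and they differed in opposite directions. By its length in HF replicate 1, the longest shared peak was in Plin4, a lipid-droplet coat protein. It had 3441 and 2403 bp in HF and 808 and 1765 bp in HB. In HB replicates 1 and 2 the longest peaks that met a shared peak had 4076 and 5954 bp.

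Counts by function are given over the genes with enough mRNA reads to be tested, of which 1642 of 12817 (12.8%) had a shared peak. The peaks of these genes and their levels are not independent of gene length. Genes of 2 regulatory groups carried shared peaks at the highest rates. Of 33 liver transcription factors and nuclear receptors, 12 (36.4%) had one, among them Foxa2, Cebpa, Cebpb, Nr5a2, Onecut1, Onecut2, Ppara, Ncor1, Nrip1, Foxo1 and Foxo3. Of 30 chromatin regulators, 11 (36.7%) did, among them Setd2, a histone H3 lysine 36 methyltransferase with 3 peaks, and Crebbp, Nsd1, Ash1l and Asxl2 with 2 each.

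Transcripts of the chromatin list were long (median 8270 bases, against 2762 for all genes tested), and those of the liver factors were not (2889). Median mRNA RPKM was 4.09 for the chromatin list and 21.1 for the liver factors, against 5.38 for all genes tested. The part of length and of abundance in these shares was not tested. Cebpb, a factor of the acute-phase response, had fold enrichments of 32.0 and 37.9 in HF and 27.9 and 26.2 in HB (chr2:167689714-167690363), with both HB values below both HF values. Foxo3 had 36.4 and 52.4 in HF and 46.1 and 24.4 in HB. Ppara, the receptor that switches on fatty acid oxidation, had 22.3 and 32.1 in HF and 14.4 and 16.2 in HB at chr15:85800981-85801611, but 8.18 and 7.13 in HF and 24.3 and 14.6 in HB at chr15:85805329-85805639. The 2 Ppara peaks thus ordered the diets in opposite ways, without overlap.

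In insulin and growth factor signalling, 7 of 23 genes (30.4%) had a shared peak: Insr, Pik3r1, Egfr, Met, Ghr, Mtor and Rictor. Egfr, the epidermal growth factor receptor, had fold enrichments of 27.9 and 34.5 in HF and 28.1 and 28.8 in HB (chr11:16911502-16912444), which overlapped. Insr, the insulin receptor, had 12.5 and 19.3 in HF and 14.1 and 15.6 in HB, also overlapping. Among immediate-early and stress genes 7 of 26 (26.9%) had one (Jun, Jund, Btg1, Dusp1, Gadd45g, Klf9 and Mcl1), and among clock genes 4 of 19 (21.1%), namely Per2, Rora, Nfil3 and Bhlhe40. Jun, the partner subunit of AP-1, had 35.3 and 49.8 in HF and 10.8 and 16.3 in HB, with no overlap.

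The m6A machinery itself carried shared peaks in 3 of 11 writer-complex genes (Wtap, Zc3h13 and Rbm15) and 2 of 15 eraser and reader genes (Ythdf2 and Ythdc1). Mettl3, Mettl14, Virma, Fto, Alkbh5, Ythdf1 and Ythdf3 had none. Rbm15, which brings the writers to their targets, had fold enrichments of 13.8 and 48.3 in HF and 34.4 and 22.2 in HB (chr3:107330217-107330611). Wtap had 11.1 and 30.6 in HF and 9.61 and 14.3 in HB at chr17:12967452-12968209, and Ythdf2, a reader that promotes decay, 11.2 and 21.2 in HF and 11.7 and 11.2 in HB. The diets overlapped in these 3 peaks. Zc3h13, with 9.48 and 15.0 in HF and 14.4 and 6.27 in HB, overlapped as well. Ythdc1 had 23.2 and 20.1 in HF and 6.09 and 14.4 in HB, so both HB values lay below both HF values.

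Several lists of metabolic, housekeeping and noncoding genes had shares below the 12.8% of all genes. None of 50 respiratory chain subunits had a shared peak, nor did most ribosomal protein genes (7 of 79, 8.86%, with Rps18, Rps19, Rpl10a, Rpl24, Rpl29, Rpl30 and Rpl41). The rates were 1 of 24 (4.17%) for betaine and methyl group enzymes, 2 of 32 (6.25%) for lipid synthesis, 1 of 14 (7.14%) for long noncoding RNAs and 2 of 20 (10%) for fatty acid oxidation. Members with a shared peak included Chdh (choline dehydrogenase, which makes betaine from choline), Acacb, Ppara and Cpt2. Respiratory chain and ribosomal protein transcripts were short (median 850.5 and 725 bases) and abundant (median mRNA RPKM 234 and 356). The Chdh peak at chr14:30036509-30037854 had fold enrichments of 8.24 and 6.02 in HF and 8.99 and 6.85 in HB. Plasma protein genes had 6 of 35 (17.1%) and cytochromes P450 4 of 32 (12.5%), including Cyp7a1, the rate-limiting enzyme of bile acid synthesis.

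**Figure D4:**
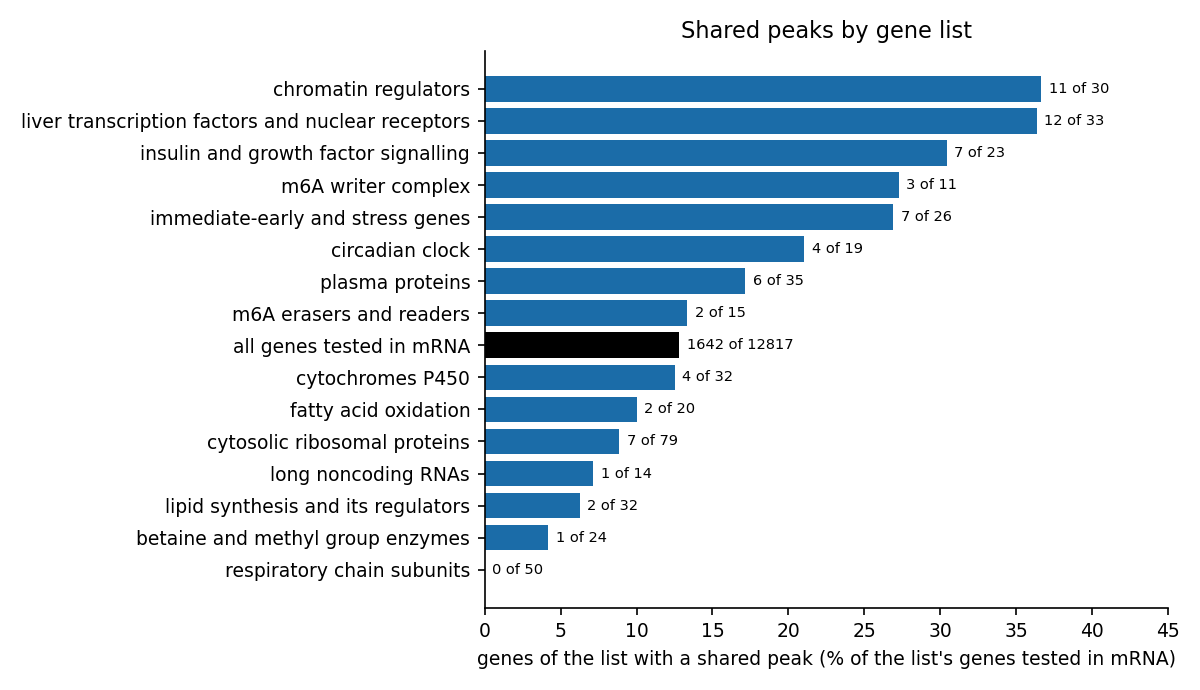
Share of the tested genes of each list that carried a peak shared by all 4 libraries, in percent, with the counts beside the bars. The black bar is the share over all 12817 genes tested in mRNA (12.8%), and chromatin regulators (36.7%) and respiratory chain subunits (0 of 50) are the extremes.

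Genes with a shared peak were expressed at moderate levels. Their median mRNA RPKM (read count scaled to the longest transcript's length and the library's reads, as deposited) was 6.15 and 5.95 in HF and 4.70 and 4.20 in HB. Tested genes with peaks but no shared one had 5.00 and 4.96 in HF and 4.22 and 3.80 in HB, and tested genes with no peak in any library had 13.2 and 13.6 in HF and 12.5 and 13.8 in HB. Median transcript lengths of the same 3 classes were 3803, 2925 and 1700 bases. In the RNC libraries, 27.9% and 24.8% of the tested genes with a shared peak had no read in HF replicates 1 and 2, and 20.7% and 20.2% in HB. Among genes with only unshared peaks these shares were 37.7%, 33.2%, 29.9% and 29.7%.

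Depth and cell content set the frame for the tests below. The mRNA libraries held 11437462 to 22492813 reads and the RNC libraries 5778439 to 8659310. Hepatocyte markers dominated all mRNA libraries (summed RPKM of the 6 markers 44909 to 47629 in HF and 53903 to 56888 in HB, none at 0). Summed RPKM of 5 red blood cell markers was 523 to 675 in HF and 738 to 2249 in HB, of 6 stellate cell markers 33.1 to 34.7 and 42.6 to 71.7, of 6 Kupffer cell markers 122 to 146 and 158 to 169, and of 5 neutrophil markers 8.81 to 52.8 and 3.43 to 4.47. Bile duct markers summed to 26.2 to 31.9 in HF and 15.7 to 26.0 in HB, lymphocyte markers to 2.80 to 3.83 and 1.70 to 1.71, and endothelial markers overlapped. Their part in the results was not tested, and fewer cells of a type and less RNA per cell cannot be told apart in bulk liver.

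With betaine, mRNAs that carried shared peaks fell more often than they rose. By edgeR's quasi-likelihood test at an adjusted p under 0.05, 2740 of 12817 genes (21.4%) differed between HB and HF, with 1446 (11.3%) higher and 1294 (10.1%) lower. Of the 1665 genes with a shared peak, 1642 passed the filter on low counts. Of these, 331 (20.2%) differed, close to the background, with 117 (7.13%) higher and 214 (13%) lower. At an unadjusted p under 0.05 there were 579 of them (35.3%), against 37.2% of all genes. Higher calls thus made up 35.3% of the calls in these genes and 52.8% of all calls. Genes with only unshared peaks had 894 higher and 878 lower of 8807, and genes with no peak 435 higher and 202 lower of 2368. The median log2 change was -0.09 for genes with shared peaks and 0.01 for all genes. Scaling by total counts moved the median of all genes to -0.28 and the higher share of calls to 14.9% for these genes and 25.2% for all. A model of 7 libraries that takes in the RNC samples called 0 of all 13454 genes (1644 at an unadjusted p under 0.05, of which 202 had a shared peak). Leaving out HF mRNA replicate 1 lowered the number of calls in genes with shared peaks and in all genes.

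The largest rises and falls were taken among called genes with a shared peak, a mean of at least 5 CPM and diets not overlapping. By this rule Onecut1, a liver transcription factor that directs hepatocyte and bile duct genes, had the largest rise. Its mRNA was 1.89 and 0.79 CPM in HF and 49.5 and 14.7 CPM in HB, so both HB values lay above both HF values, a log2 change of 4.58 ± 0.62 (SE, n = 2 per diet, edgeR adjusted p = 0.0040). Its shared peak went the other way in enrichment, from 20.8 and 19.3 in HF to 8.73 and 6.41 in HB (chr9:74889334-74890003). In HF replicate 1 the summit of this peak lay just past the end of the gene span. The pileups there were 169 and 844 in HF and 357 and 52.8 in HB and overlapped.

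Among metabolic genes, Acads, short-chain acyl-CoA dehydrogenase of fatty acid oxidation, rose from 43.4 and 53.1 CPM to 214 and 222 CPM (log2 2.17 ± 0.29, edgeR adjusted p = 0.0040). Gbe1, the glycogen branching enzyme, rose from 19.3 and 17.4 to 177 and 62.6 CPM (log2 2.70 ± 0.44, edgeR adjusted p = 0.0052). Nudt7, a peroxisomal CoA diphosphatase, rose from 54.8 and 121 to 529 and 229 CPM (log2 2.11 ± 0.46, edgeR adjusted p = 0.012). The HB values of these genes lay above the HF values, but Nudt7 was not called by edgeR without HB replicate 1 (adjusted p = 0.080). Cldn2, a tight-junction claudin, rose from 19.01 and 15.5 to 98.3 and 54.8 CPM (log2 2.15 ± 0.34). In RNC, as given below, Acads differed in the other direction. Gabbr2, Impad1, Gm4951, Gna12 (a G-protein alpha subunit) and Opa3 completed the 10 largest rises by this rule, with log2 changes of 2.17 to 4.26. Outside the rule, Gprin3 (log2 2.48) and Cyp2u1 (log2 2.25) were called and rose more than Cldn2. The calls of Impad1, Gm4951, Gna12 and Opa3 were lost without HB replicate 1, at adjusted p values of 0.0502 to 0.081.

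Crp, Fga and Serpina3k, plasma protein genes with high pileups, rose. Crp went from 74.7 and 79.3 CPM in HF to 269 and 209 CPM in HB (log2 1.63 ± 0.30, edgeR adjusted p = 0.0073), while its m6A pileup and enrichment were lower in both HB libraries. Serpina3k rose from 2907 and 3205 to 6788 and 6684 CPM (log2 1.14 ± 0.29, edgeR adjusted p = 0.020), a call lost without HF replicate 1 (adjusted p = 0.11). Fga rose from 1016 and 809 to 2931 and 1566 CPM (log2 1.30 ± 0.35, edgeR adjusted p = 0.025), lost without HF replicate 2 or HB replicate 1 (adjusted p = 0.097 and 0.093). In RNC, as given below, Fga differed in the other direction. The other plasma protein genes with shared peaks, Apoa1, Apob, F5 and Kng1, were not called.

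Of the falls, that of Il1r1, the signalling receptor of interleukin-1, was the deepest. Its mRNA was 394 and 319 CPM in HF and 27.2 and 64.1 CPM in HB (log2 -2.97 ± 0.41, edgeR adjusted p = 0.0040), and the groups were far apart. Its m6A pileups were 495 and 814 in HF and 230 and 267 in HB, and its fold enrichments 22.2 and 25.6 against 14.4 and 16.7. Osmr, the oncostatin M receptor subunit, fell from 11.4 and 7.93 to 2.66 and 2.60 CPM (log2 -1.87 ± 0.39, edgeR adjusted p = 0.0099), lost without HF replicate 1 (adjusted p = 0.066).

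Zscan26, the zinc finger gene whose shared peak holds the Mir1896 hairpin on the opposite strand, fell from 240 and 245 CPM to 54.2 and 67.8 CPM (log2 -1.99 ± 0.30, edgeR adjusted p = 0.0046). The peak there had fold enrichments of 16.0 and 10.9 in HF and 21.2 and 10.6 in HB, and pileups of 262 and 152 in HF and 615 and 468 in HB. So its mRNA was lower and its pileup higher in both HB libraries. Noct, a rhythmic enzyme also called nocturnin, fell from 499 and 529 to 87.6 and 178 CPM (log2 -1.95 ± 0.36), and its pileups were 1583 and 1952 in HF and 872 and 743 in HB. Zfp715, Csrnp2, Morc3, Trim39, Fam214a and Zmym5 completed the 10 deepest falls by the same rule, with log2 changes of -1.87 to -2.08.

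**Figure D5:**
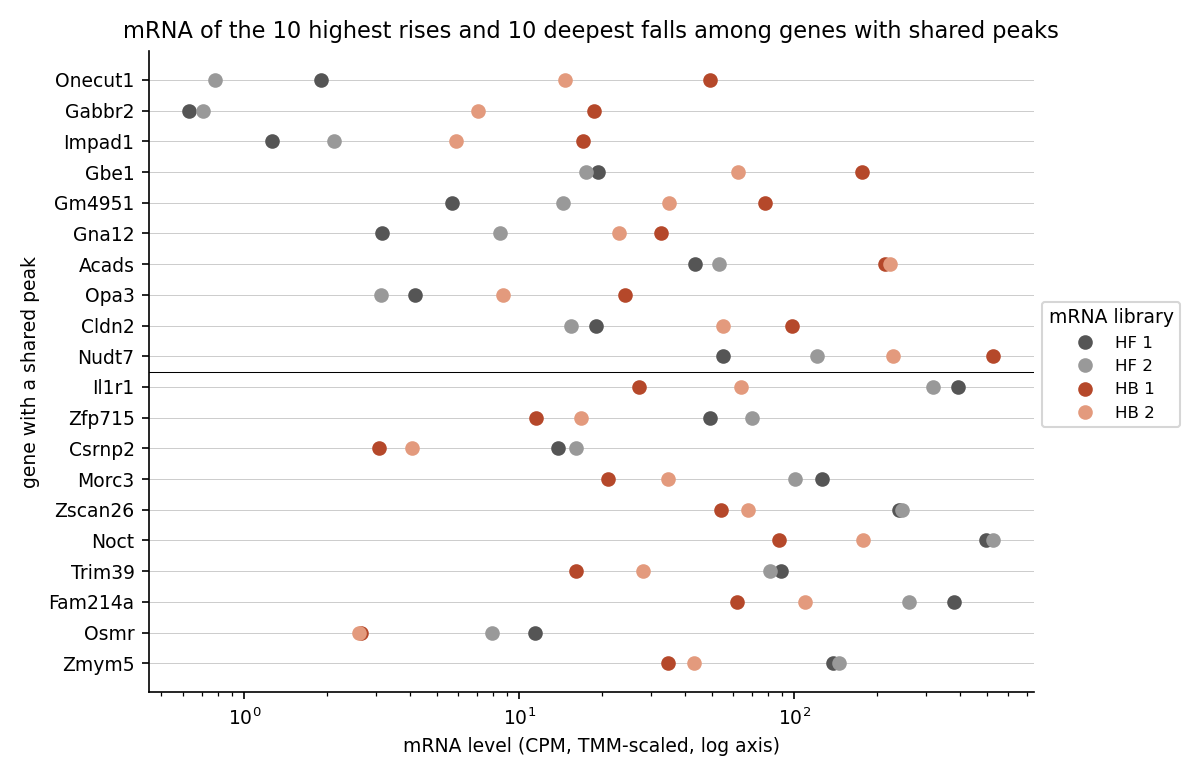
mRNA level in CPM (log axis) in the 4 mRNA libraries for the 10 genes with the largest rise (above the line) and the 10 with the deepest fall (below) among called genes with a shared peak and a mean of at least 5 CPM. In each row both HB points lie on 1 side of both HF points, which was part of the rule that chose these genes.

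Regulators with shared peaks that fell included parts of the m6A machinery. Zc3h13, a writer adaptor, fell from 111 and 76.8 CPM in HF to 26.2 and 34.0 CPM in HB (log2 -1.64 ± 0.30, edgeR adjusted p = 0.0075). Ythdc1, the nuclear reader, fell from 86.4 and 70.3 to 34.5 and 28.6 CPM (log2 -1.31 ± 0.28, edgeR adjusted p = 0.011). Both calls were lost in edgeR without HF replicate 1 (adjusted p = 0.052 and 0.11). Wtap, Rbm15 and Ythdf2 were not called, with log2 changes of -0.15, 0.29 and -0.02. Over the whole lists, 0 writers rose and 2 of 11 fell, and of 15 erasers and readers 1 rose and 1 fell. The riser was Fto, which had no shared peak and was called in 1 of 4 fits that each left out a library.

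Calls in the other lists are read against the 20.2% of all genes with shared peaks. Among clock genes with a shared peak 1 of 4 was called, among immediate-early and stress genes 2 of 7, among insulin and growth factor genes 1 of 7 and among liver factors 1 of 12. Per2, a core clock repressor, fell from 394 and 426 to 108 and 162 CPM (log2 -1.60 ± 0.31, edgeR adjusted p = 0.0088), and Bhlhe40, Nfil3 and Rora were not called. Tet2, which oxidises DNA 5-methylcytosine, fell from 59.1 and 40.9 to 14.7 and 18.8 CPM (log2 -1.58 ± 0.30), and Arid1a of the SWI/SNF complex fell by 0.92 ± 0.28 on the log2 scale. These were 2 of the 11 chromatin regulators with shared peaks, and over the whole list 0 of 30 rose and 8 fell. Tet2 was not called by edgeR without HF replicate 1 (adjusted p = 0.074). Rictor, a subunit of mTOR complex 2, fell (log2 -1.33 ± 0.27), as did Dusp1, a phosphatase of MAP kinases (-1.23 ± 0.33). Klf9 (1.37 ± 0.39), Cyp2u1 (2.25 ± 0.56), Rpl41 (1.60 ± 0.31) and the lncRNA 2900097C17Rik (1.11 ± 0.28) rose. Of the 4 fits that each left out a library, 1 called Klf9, 1 Cyp2u1, 1 2900097C17Rik, 1 Arid1a, 2 Dusp1 and 3 Rictor, while all 4 called Rpl41. The called liver factor was Onecut1.

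In RNC, no gene passed the test between diets. With HB counted as 1 sample, edgeR's test had 1 residual degree of freedom and called 0 of 10986 genes (0%), with 350 (3.19%) at an unadjusted p under 0.05. Of the 1490 tested genes with a shared peak, 48 (3.22%) had such a p. DESeq2 called 673 genes in all (6.13%), 131 of them higher, and 91 of those with a shared peak (6.11%). By values alone, the smallest unadjusted edgeR p values were those of Tesk1, Aldh1a1, Nudt7, Notch1 and Il1r1, with adjusted p = 1.00 in each.

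Il1r1 had 253 and 158 CPM in the HF RNC libraries and 38.1 CPM in the summed HB library, and its log2 difference of -2.43 ± 0.59 (unadjusted p = 0.0084, edgeR) had the sign of the fall in mRNA. Nudt7 had 49.5 and 97.2 CPM in HF and 424 in HB, again with the sign of its mRNA change. Aldh1a1, retinaldehyde dehydrogenase, had 429 and 276 CPM in HF RNC and 55.7 in HB RNC, while its mRNA rose from 635 and 615 to 1767 and 1563 CPM (log2 1.41 ± 0.29, edgeR adjusted p = 0.0099, but 0.052 without HF replicate 1). Its values therefore differed in opposite directions in mRNA and RNC. By values, so did those of Acads and Fga. Acads had 132 and 143 reads in HF RNC and 0 in both HB RNC libraries. Fga had 540 and 394 CPM in HF RNC and 232 CPM in the summed HB library. Tesk1 and Notch1 had 411 and 349, and 542 and 105 reads in HF RNC and none in either HB RNC library, with mRNA present in all 4 mRNA libraries.

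Within HF, RNC levels were set against mRNA levels, which asks how far an mRNA is bound to ribosomes relative to other mRNAs. edgeR called 2708 of 11998 genes (22.6%), with 343 (2.86%) higher and 2365 (19.7%) lower in RNC. Among 1615 tested genes with a shared peak, 301 (18.6%) were called, 40 (2.48%) higher and 261 (16.2%) lower, so each share lay a little below the background. At an unadjusted p under 0.05 there were 448 (27.7%), against 32.1% of all genes. Their median log2 ratio was -0.51, against -0.46 for all genes. Leaving out either HF mRNA library ended all of these calls (0, with 84 and 81 of these genes at an unadjusted p under 0.05), and a fit with no filter on low counts also called 0 (472 at an unadjusted p under 0.05). DESeq2 called 302.

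Much of the lower group had no RNC read. Of the 261 genes called lower, 207 had 0 reads in both HF RNC libraries. In all, 213 of the 1615 tested genes with a shared peak (13.2%) were at 0 in both, against 2052 of all 11998 (17.1%), and 105 of the 213 had reads in an HB RNC library. Set against a floor of 3 reads per library (0.470 CPM), Jun was at least 133-fold lower in RNC than its mean of 62.6 CPM in mRNA. Pex11a (peroxisome division) was at least 131-fold, Cish (a feedback inhibitor of cytokine signalling) at least 113-fold, Irak2 (an interleukin-1 signalling kinase) at least 94.3-fold and Notch2 at least 84.3-fold lower. The floor covers counting error only, and whether the listed zeros reflect ribosome binding or the making of the count tables was not tested. In HB RNC the same genes had reads, among them 65 and 111 for Jun, 222 and 227 for Cish and 107 and 133 for Irak2.

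Among genes with a shared peak, the highest ratio was that of Csrnp2. Csrnp2, a cysteine-serine-rich nuclear protein, had 15.9 and 18.8 CPM in HF mRNA and 293 and 344 CPM in HF RNC (log2 4.20 ± 0.23, edgeR adjusted p = 0.035). Pigr, the polymeric immunoglobulin receptor, had 1242 and 1396 CPM in mRNA and 13662 and 15618 CPM in RNC (log2 3.47 ± 0.24, edgeR adjusted p = 0.035). Plcl2, Ccdc59 and Ubn2 followed with log2 ratios of 3.01 to 3.31, and Pik3ca, one of the 10 most enriched peaks, had 2.34. At the other end, the ribosomal protein genes Rpl10a, Rpl24, Rpl29 and Rps19 were lower in RNC, with log2 ratios of -4.70 to -7.60. Rpl24 had 277 and 301 CPM in mRNA and 13.2 and 5.44 CPM in RNC. Per2 was also lower (454 and 499 CPM against 148 and 96.3 CPM, log2 -1.97, edgeR adjusted p = 0.036).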

How the data were processed

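The deposited peak lists were made per library by the authors. Trimming with Trimmomatic 0.36 and alignment with TopHat 2.0.13 are given per the labels' protocols, with MACS2 2.1.0.20151222 and mm10 among the tools and builds in the submitters' processing notes. A second trimmer and aligner, cutadapt 1.9.3 and HISAT2 2.0.4, are also recorded for the series. Which of them the peak lists went through was not settled here. Each list gives, per the file headers, a pileup signal, a fold enrichment ratio and −log10 p and q values, and the scaling of the pileup is not given in the sources used here. The deposited counts are reads per gene with no normalization by the authors, and the deposited RPKM divides them by transcript length and library size per the file headers. The 4 m6A input samples of the 16 listed were not analysed here.

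Peaks were assigned to RefSeq gene spans (GRCm38.p6) in place of the planned exons, since no exon table was used, and strand came from the RefSeq start table. Counts were tested over all genes with edgeR 4.0.16 (TMM, filterByExpr, quasi-likelihood F test, Benjamini-Hochberg, threshold 0.05) in R 4.3.3, with DESeq2 1.42.0 and limma 3.58.1 as alternatives. CPM values are TMM-scaled within each fit, and SEs are the log2 change over the root of F. On simulated counts with 200 genes changed 4-fold, the mRNA comparison recovered 189. At their own spread the RNC comparisons recovered 0, and at that of mRNA they recovered 146 (between diets) and 182 (over mRNA). The simulation gave every gene the same common spread, unlike the data, in which RNC over mRNA in HF called 2708 of 11998 genes. Its 0 is therefore no measure of what the real test could find.

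The peaks and gene lists were chosen with earlier results of these data known. Genes were named by a rule: the 10 highest lowest-of-4 enrichments and pileups, the genes with most peaks, the longest and shortest peaks, the 10 largest called mRNA changes each way at a mean of at least 5 CPM with diets not overlapping, 5 RNC values each way, up to 4 per list and a set of m6A and methyl genes. Genes named to complete a count or beside a sequence, and the peaks chosen among several of a gene, were picked after their values were seen.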

Additional observations from a re-analysis of the deposited data

How the results depend on the processing

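Requiring 50% reciprocal overlap left 1039 shared peaks and 989 genes, and a fold enrichment of at least 10 in each library left 656 and 613. A −log10 q of at least 10, or another library as the anchor, gave 1858 to 1919 peaks, and leaving out 1 m6A library gave 2438 to 2708. For calls among genes with shared peaks, the mRNA comparison gave 0 with 7 libraries in 1 model and 68 to 388 when 1 library was left out; other settings gave 308 to 431. Fga, Klf9, Fto and 2900097C17Rik were not called with total counts, nor were these, Fasn, Opa3 and Serpina3k by limma on log2(RPKM + 0.1). The RNC comparison gave 91 by DESeq2, 175 with 7 libraries in 1 model, 211 with HB as 2 replicates and 0 to 1225 when 1 library was left out. The highest values came where a single HF library was left, and the spread then rests on the near-identical HB pair. RNC over mRNA in HF gave 0 with no filter on low counts and 0 to 1080 when 1 library was left out. A lone sample was assumed to vary like the other group. The cause of these shifts was not tested. No called change reversed direction under these settings for the named genes checked, 74 in mRNA between diets and 10 in RNC over mRNA in HF; the named RNC differences between diets and the other named ratios were not checked.

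Same-numbered libraries shared only a number by the labels. Deviations of same-numbered mRNA libraries had r = -0.12 over 12817 genes, and HF mRNA and RNC had r = 0.10 over 11998. With the replicate block the mRNA calls among genes with a shared peak were 349 (21.3%, against 22.9% of all genes). RNC between diets (HB as 2 replicates) gave 0. RNC over mRNA gave 4 (0.248%, against 0.467% of all genes), where it gave 301 without the block. The crossed replicate block, chosen after seeing the data, gave 411 mRNA calls (25%, against 26.6% of all genes). Exon-based gene assignment and the motif search over whole peaks were not run, since they need a genome of the build. Peak lists give no read depth, and precision there is limited by 4 libraries.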

Other observations

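A few markers of minor cell types of the liver had a shared peak: 1 of 6 for Kupffer cells, 1 of 6 for stellate cells and 2 of 5 for endothelial cells. Of the 6 hepatocyte markers, 1 had one. Clec4f, a lectin of Kupffer cells, had fold enrichments of 33.3 and 47.3 in HF and 30.7 and 25.5 in HB, and pileups of 3000 and 2552 in HF and 4077 and 3792 in HB. Kdr, a VEGF receptor of endothelial cells, had fold enrichments of 28.2 and 11.2 in HF and 26.2 and 15.6 in HB. Pecam1, an endothelial adhesion molecule, had 2 shared peaks, at 25.2 and 20.5 in HF and 15.4 and 14.9 in HB, and at 58.7 and 15.8 in HF and 9.67 and 6.59 in HB. Lrat, which esterifies retinol in stellate cells, had 28.5 and 50.1 in HF and 16.2 and 14.8 in HB, and the peak reached the first bases of the gene. None of the 5 bile duct, 5 red blood cell, 5 neutrophil and 5 lymphocyte markers had a shared peak.

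A few shared peaks had very unequal enrichment. Nudt1/Mrm2 had 9.38 and 30.7 in HF and 100 and 8.80 in HB, Pag1 21.7 and 10.8 in HF and 69.1 and 6.43 in HB, and Irf5, an interferon regulatory factor, 23.7 and 26.2 in HF and 7.35 and 78.2 in HB. In each of the 3 a single HB library stood far above the other HB library.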
